A study of Mus musculus with 12 samples.

Results

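The Notch pathway of cultured mouse OPCs was followed through 10 of the 55536 quantified genes: the receptors Notch1, Notch2 and Notch3, the ligands Dll1, Dll3 and Jag1, and the target genes Hes1, Hes5, Hey1 and Nrarp. The genes were chosen by name, and all 10 passed the filter on low counts (at least 10 counts in at least 3 libraries). OPCs (oligodendrocyte precursor cells, the progenitors of the cells that make myelin) came from pooled brains of pups aged 4 to 6 days and were kept in medium with PDGFaa and bFGF. Ctr-OPCs received no treatment, Dexa-treated OPCs received 1 µM of dexamethasone, a synthetic glucocorticoid, for 48 h, and IFN-γ-treated OPCs received 100 ng/ml of the cytokine IFN-γ for 48 h. Each group had 4 replicates from separate litters, and libraries with the same replicate number were treated as pairs. Per the study's methods the mouse line was Sox10:Cre-RCE:LoxP (EGFP), in which Cre under the Sox10 gene switches on EGFP in the oligodendrocyte lineage. Cells were taken by Sox10-GFP sorting or with beads against CD140a (the PDGF receptor α), and the labels do not say which was used for which library. The labels give EAE (experimental autoimmune encephalomyelitis) as the mouse model of every sample, whereas the growth protocol describes cells from pups in culture and names no immunization.

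Notch signalling passes between touching cells. A ligand on one cell binds a receptor on the next, the receptor is cut by ADAM proteases and then by γ-secretase, and the freed intracellular domain enters the nucleus, where it joins the DNA-binding protein RBPJ and switches on Hes and Hey genes. The Hes and Hey proteins are repressors of the basic helix-loop-helix (bHLH) type, and in OPCs active Notch signalling is known for holding back the step to myelinating cells.

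The 11 complete libraries held 19209063 to 52074652 reads in genes, and the members were covered by 83 reads (Hes1, Dexa replicate 4) to 12541 reads (Notch1, an IFN-γ library). The table of Dexa replicate 3 was incomplete, with 33.7% of the transcripts, so it was left out and n = 3 for Dexa unless stated. Hes1 was the only member it listed whole. The treatments showed in their known target genes: Irf1 rose by 6.01 (log2) in IFN-γ-treated OPCs, and Fkbp5 rose by 1.41 and Per1 by 1.60 in Dexa-treated OPCs (adjusted p from 1.04e-13 to 8.73e-07, edgeR). All 8 OPC markers passed the filter, with a summed level of 5559 to 13119 normalized CPM in Ctr-OPCs and 3838 to 9028 in IFN-γ-treated OPCs. Normalized CPM (CPM of the tested genes on TMM-scaled library sizes) make libraries of different depth comparable, and all values by library below are in this unit unless TPM is named.

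Levels per transcript length (TPM) put the members in Ctr-OPCs in 3 ranges. Dll3 (48.5 ± 18.3 TPM), Hes5 (40.8 ± 14.8) and Dll1 (30.8 ± 4.12) were highest (mean ± SD, n = 4), and their libraries overlapped. Notch1 followed at 17.2 ± 2.98 TPM, with all 4 libraries (13.6 to 20.6) below those of Dll1 and above those of the next gene. Hey1 (8.70 ± 1.60), Nrarp (8.01 ± 2.78), Jag1 (6.42 ± 1.80) and Hes1 (4.98 ± 2.94) overlapped with their neighbours in this order. Notch2 (2.07 ± 1.00) and Notch3 (1.70 ± 1.03) were lowest and overlapped with each other. Notch1 thus made up 73.1% to 88.2% of the summed TPM of all Notch receptor genes, Notch4 included, in the untreated libraries. TPM served for comparing genes within a library, since the median of all tested genes moved by up to 0.27 (log2) between IFN-γ and Ctr libraries of a pair on that scale. The protein-coding transcript with the most reads took at least 87.7% of the reads of each member in every library. Its part of the TPM was smaller, at a mean of 19.4 of 30.8 TPM for Dll1 and 12.6 of 17.2 for Notch1 in Ctr-OPCs. The rest lay mostly in transcripts with no protein-coding label. TPM values of a gene here count all its transcripts.

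**Figure D1:**
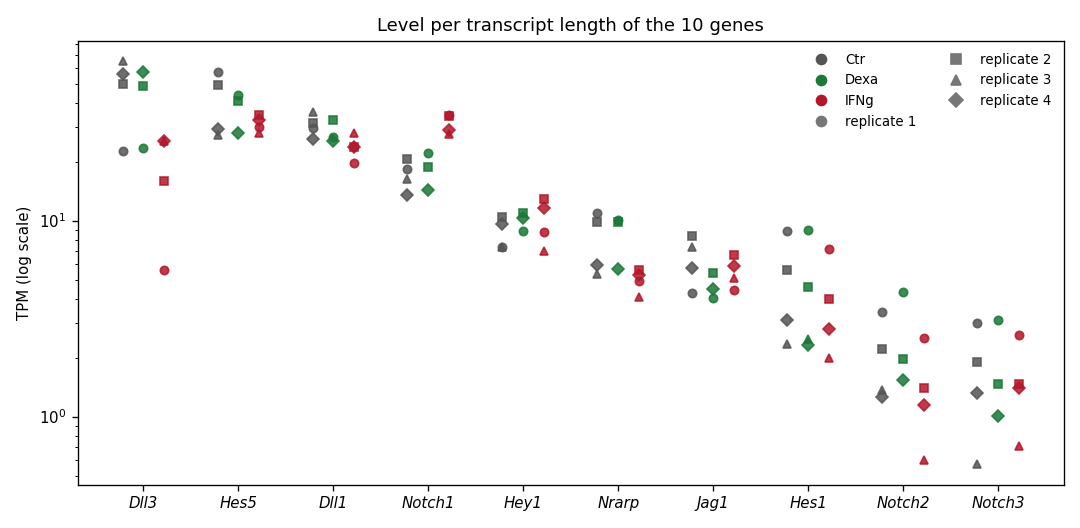
TPM (log scale) of each member in each complete library, plus Hes1 in the incomplete Dexa replicate 3, ordered by the mean in Ctr-OPCs, with colour for the group and marker shape for the replicate number. Dll3, Hes5 and Dll1 lie highest in Ctr-OPCs and Notch2 and Notch3 lowest, while Notch1 lies at 27.7 to 34.4 TPM in the IFN-γ libraries against 13.6 to 20.6 in the Ctr libraries. The median of all tested genes also moved on this scale with IFN-γ, by 0.27, 0.25, -0.10 and 0.24 (log2) in replicates 1, 2, 3 and 4.

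Under IFN-γ, expression of 1 receptor rose, that of another fell, and all 3 ligands and 2 of the 4 target genes fell. Of the 10 members, 7 differed from Ctr-OPCs in IFN-γ-treated OPCs (adjusted p under 0.05, edgeR with a block for replicate), where 30.8% of all 18386 tested genes did. Notch1 alone was higher, against 14.8% of all genes, and 6 were lower, against 15.9%. The median log2 fold change was -0.51 over the 10 members and -0.03 over all tested genes. Because these are bulk samples, fewer cells of a type and less RNA per cell cannot be told apart. Without the block, edgeR called 2 of the 10 members and DESeq2 called 4, while DESeq2 with the block called 7.

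Notch1 (ENSMUSG00000026923, chromosome 2, 26457903 to 26516663, GRCm38), the receptor with the most transcript in these cells, rose in each of the 4 pairs. It held 251, 233, 187 and 171 normalized CPM in Ctr-OPC replicates 1 to 4 and 375, 305, 335 and 291 in the IFN-γ libraries of the same numbers. Every IFN-γ library lay above every Ctr library, which held for groups in either direction for 14.5% of all tested genes. The pairs gave ratios of 1.49, 1.31, 1.79 and 1.71, and the log2 fold change was 0.64 (SE 0.070, 95% interval 0.49 to 0.80, adjusted p = 2.6e-05, edgeR). This call held in all 22 alternative settings.

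Notch2 (ENSMUSG00000027878, chromosome 3, 98013527 to 98150361) fell. Its values were 56.9, 34.3, 20.6 and 21.4 in Ctr-OPCs and 35.6, 16.8, 10.1 and 15.5 in IFN-γ-treated OPCs. The groups overlapped because replicate 1 was high in both, while each IFN-γ library was at 0.49 to 0.72 of its own Ctr library. On the log2 scale this was a change of -0.80 (SE 0.089, adjusted p = 3.2e-05, edgeR), and without the block the adjusted p was 0.39 in edgeR and 0.33 in DESeq2.

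Notch3 (ENSMUSG00000038146, chromosome 17, 32120820 to 32166852), a receptor best known from vessel walls, did not pass the test. It held 41.3, 21.4, 6.17 and 16.6 in Ctr-OPCs and 27.1, 12.3, 9.04 and 13.4 in IFN-γ-treated OPCs, so that 3 pairs were lower and replicate 3 was higher with IFN-γ. The log2 fold change was -0.33 (95% interval -0.80 to 0.14, adjusted p = 0.27, edgeR). Without Ctr replicate 3 it was -0.58 with an adjusted p of 0.0041, and without IFN-γ replicate 3 it was -0.56 with 0.0047. The share of Notch1 in the summed TPM of all Notch receptor genes was 86.3% to 95.2% in the IFN-γ libraries, and in each pair it was higher than in the Ctr library.

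**Figure D2:**
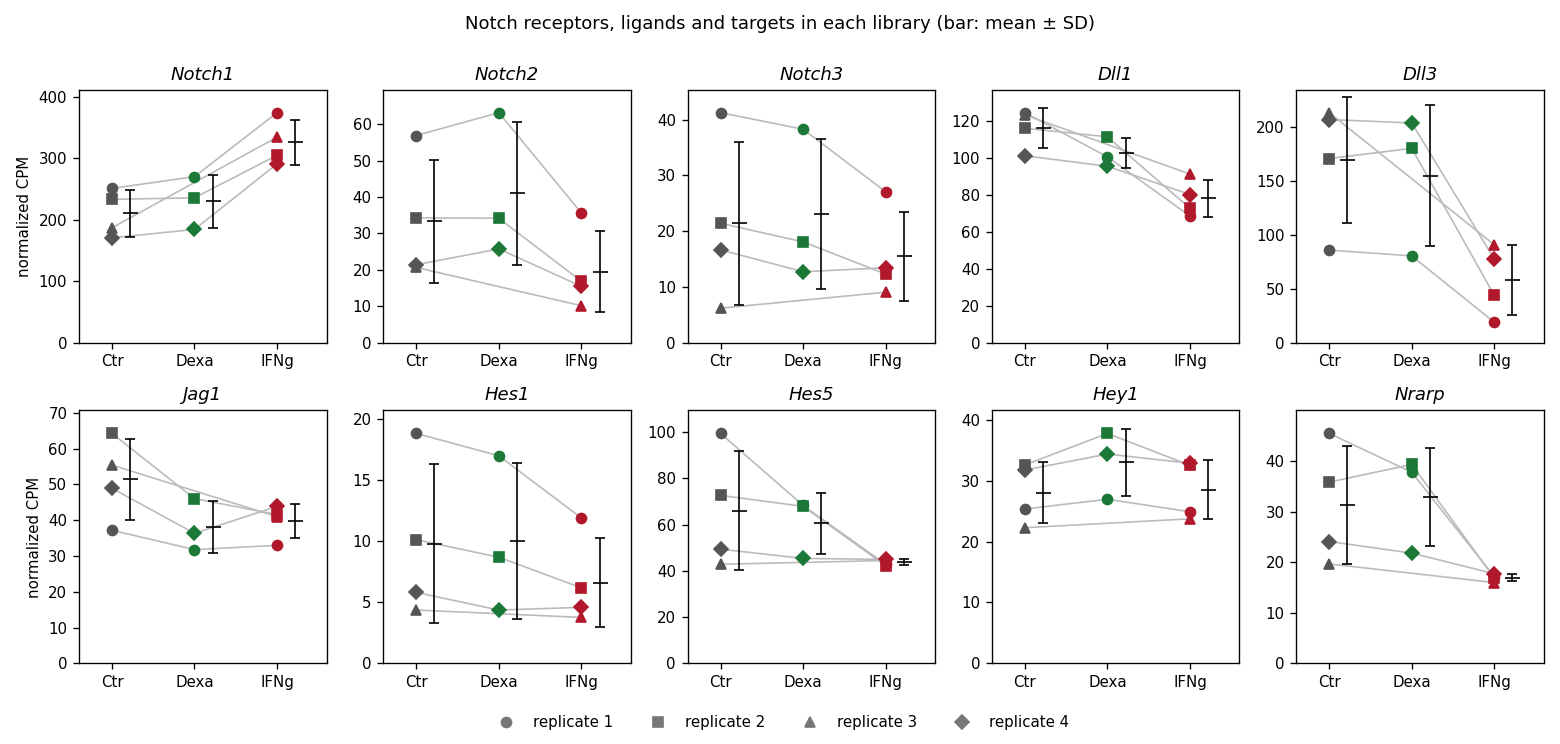
Normalized CPM (linear axes from 0) of the 10 members by group, with 1 point for each complete library, marker shapes for replicate numbers, grey lines between libraries of the same number, and black bars for mean ± SD (n = 4 Ctr, 3 Dexa, 4 IFN-γ). Notch1 lies higher in all IFN-γ libraries (291 to 375) than in all Ctr libraries (171 to 251), Dll3 drops in each pair, and the IFN-γ libraries of Hes5 and Nrarp lie close together.

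The ligands fell together, and Dll3 fell most. Dll3 (ENSMUSG00000003436, chromosome 7, 28293553 to 28302238) is a divergent ligand that does not activate receptors on neighbouring cells and is known to dampen Notch within its own cell. Its values were 85.9, 171, 214 and 207 in Ctr-OPCs against 18.8, 43.9, 90.9 and 77.6 in IFN-γ-treated OPCs, which are ratios of 0.22, 0.26, 0.43 and 0.37. The highest IFN-γ library lay just above the lowest Ctr library, which was replicate 1. The log2 fold change was -1.68 (SE 0.17, 95% interval -2.08 to -1.28, adjusted p = 0.00030, edgeR), and the adjusted p without the block was 0.085 in edgeR.

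Dll1 (ENSMUSG00000014773, chromosome 17, 15367354 to 15376872), a ligand that activates receptors on neighbouring cells, varied least between untreated libraries, with 124, 116, 123 and 101. In IFN-γ-treated OPCs it held 68.5, 72.6, 91.1 and 80.1, all below the Ctr libraries. Its change was -0.58 on the log2 scale (SE 0.080, adjusted p = 0.00020, edgeR), called in all 22 alternative settings.

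Jag1 (ENSMUSG00000027276, chromosome 2, 137081456 to 137116644), a ligand of the Serrate type, fell less. It held 37.2, 64.3, 55.4 and 48.9 in Ctr-OPCs and 33.0, 41.6, 41.0 and 43.9 in IFN-γ-treated OPCs, and all 4 pairs were lower. The log2 fold change was -0.35 (SE 0.081, adjusted p = 0.0059, edgeR), with 0.26 in edgeR and 0.25 in DESeq2 without the block.

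The balance of the ligands differed between replicate numbers and between groups. The ratio of Dll3 to Dll1 (both in TPM) was 0.77, 1.59, 1.82 and 2.15 in Ctr-OPC replicates 1 to 4 and 0.28, 0.67, 0.91 and 1.07 in the IFN-γ libraries. Each IFN-γ library was lower than its own Ctr library, whereas replicate 1 was the lowest in both groups. The summed TPM of Dll1, Dll3, Dll4, Jag1 and Jag2 ranged from 57.6 to 109 in Ctr-OPCs and from 30.1 to 58.8 in IFN-γ-treated OPCs. These sums are not corrected for the move of the TPM scale between groups. Ratios and sums count all transcripts of each gene, which weighs more for Dll1 than for Dll3. The protein-coding transcript with the most reads had a mean of 42.2 TPM for Dll3 and 19.4 for Dll1 in Ctr-OPCs. In IFN-γ-treated OPCs the same transcripts had 15.9 and 14.7 TPM.

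Among the target genes, Nrarp and Hes1 fell, Hes5 did not pass the test and Hey1 lay near the same level in both groups. Nrarp (ENSMUSG00000078202, chromosome 2, 25180758 to 25183339) codes for a small ankyrin-repeat protein that is induced by Notch and limits it in turn. It held 45.4, 35.8, 19.7 and 24.1 in Ctr-OPCs and 17.1, 16.9, 16.0 and 17.7 in IFN-γ-treated OPCs, with no overlap. The ratios were 0.38, 0.47, 0.81 and 0.74. With IFN-γ values this close together, the order of the ratios is set by the Ctr values. The log2 fold change was -0.81 (SE 0.20, adjusted p = 0.020, edgeR). That call was lost without Ctr replicate 2 (adjusted p = 0.077), IFN-γ replicate 2 (0.082) or Ctr replicate 4 (0.052), without the block in edgeR (0.067) and without the filter on low counts (0.072).

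Hes5 (ENSMUSG00000048001, chromosome 4, 154960923 to 154962371), the most abundant target gene here and the main Hes repressor in neural precursors, held 99.4, 72.6, 42.8 and 49.4 in Ctr-OPCs. All 4 IFN-γ libraries lay between 42.2 and 44.9, at the level of the lowest Ctr library. The paired ratios were 0.43 and 0.58 in replicates 1 and 2 and 1.04 and 0.91 in replicates 3 and 4. The log2 fold change was -0.52 (95% interval -1.04 to -0.0026, adjusted p = 0.12, edgeR), and -0.71 with an adjusted p of 0.0498 without Ctr replicate 3. That was the only call in 22 alternative settings. Over the fits without 1 library the change ran from -0.71 to -0.32, with adjusted p up to 0.33 (edgeR). The highest library was 2.32 times the lowest among Ctr-OPCs and 1.06 times the lowest among IFN-γ-treated OPCs. For Nrarp the same ratios were 2.31 and 1.11.

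Hes1 (ENSMUSG00000022528, chromosome 16, 30064384 to 30067796), a Hes repressor that many signals besides Notch also induce, was low, at 18.8, 10.1, 4.36 and 5.80 in Ctr-OPCs and 11.9, 6.18, 3.76 and 4.58 in IFN-γ-treated OPCs. The groups overlapped, and every pair was lower (ratios 0.61 to 0.86). Hes1 thus changed by -0.50 on the log2 scale (SE 0.12, adjusted p = 0.0062, edgeR), with 0.64 in edgeR and 0.63 in DESeq2 without the block. Hey1 (ENSMUSG00000040289, chromosome 3, 8663359 to 8667256), a related repressor, held 25.4, 32.6, 22.3 and 31.8 in Ctr-OPCs and 24.9, 32.5, 23.8 and 32.9 in IFN-γ-treated OPCs. Its difference was 0.03 (log2, 95% interval -0.10 to 0.16, adjusted p = 0.77, edgeR), the narrowest interval of the 10 members.

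**Figure D3:**
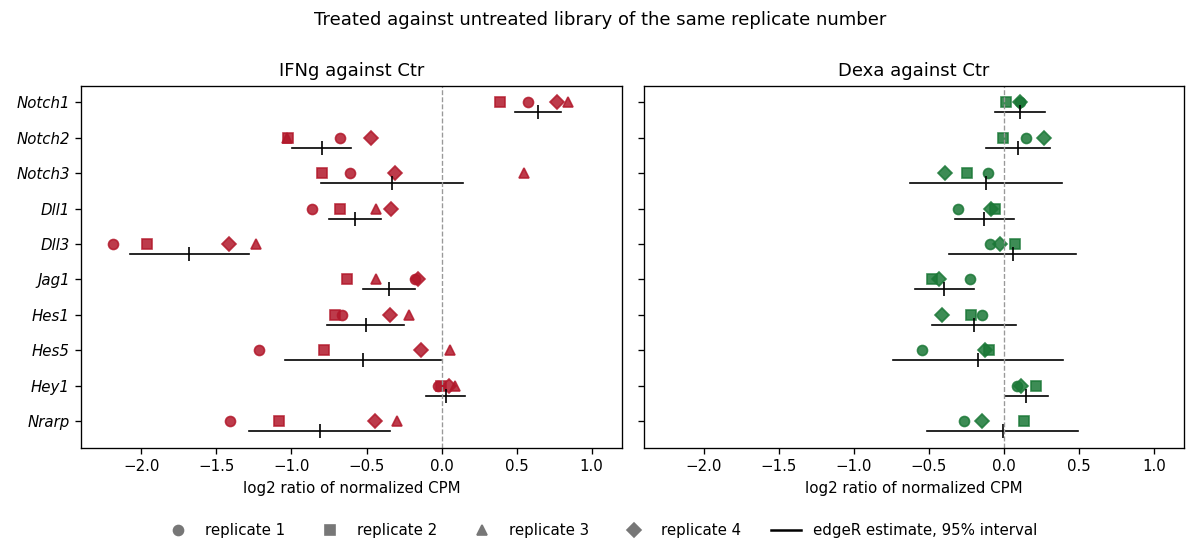
Log2 ratio of normalized CPM between the treated and the untreated library of the same replicate number, for IFN-γ (left, 4 pairs) and Dexa (right, 3 pairs), with marker shapes for replicate numbers and black lines for the edgeR estimate with its 95% interval. With IFN-γ all 4 pairs lie above 0 for Notch1 and below 0 for Notch2, Dll1, Dll3, Jag1, Hes1 and Nrarp, while Hes5 and Notch3 have replicate 3 on the other side.

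Promoter sequence is shown for Hes5 and Nrarp, the target genes whose IFN-γ libraries lay closest together. Windows from 250 bases before to 50 bases after the transcript start were taken from RefSeq on GRCm38.p6, and 8 of the 10 members had at least 1 (Hes1 and Hey1 had none in the table used). The core of the RBPJ site, TGGGAA on either strand, stood in the windows of Hes5 alone among these 8 genes, where it occurred 2 times on opposite strands. Of all 32851 windows, 25.6% held it at least once and 3.79% at least 2 times. The N box CACNAG on either strand, the site known for Hes repressors, stood 2 times in the window of Nrarp. Of all windows, 42.5% held an N box and 11.3% held at least 2. The Hes5 stretch is chr4:154960677-154960866 with RBPJ cores in capitals, and the Nrarp stretch is chr2:25180559-25180704 with N boxes in capitals, both on the plus strand.
Hes5: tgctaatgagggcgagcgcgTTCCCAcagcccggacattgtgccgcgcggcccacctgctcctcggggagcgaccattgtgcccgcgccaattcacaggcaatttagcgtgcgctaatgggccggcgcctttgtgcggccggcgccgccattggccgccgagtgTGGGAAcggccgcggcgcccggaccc
Nrarp: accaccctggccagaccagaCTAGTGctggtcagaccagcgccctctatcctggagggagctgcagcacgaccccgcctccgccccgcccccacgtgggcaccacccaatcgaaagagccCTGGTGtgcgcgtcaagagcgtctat
The letters of a STAT site (GAS, TTCNNNGAA, in 8.30% of all windows) stood in the window of Notch3 alone, from base 2 to base 10 after the start. Those of one arm of a glucocorticoid receptor site (AGAACA, in 19.0% of all windows) stood in a Dll1 window alone, where they occurred 2 times, once on each strand. N boxes stood also in the windows of Notch1 (3, of which 2 overlap), Notch2 (1), Notch3 (2) and Dll1 (1). Such matches are letters in a window and no evidence of binding.

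The rest of the pathway was read from a list of 54 further genes, of which 50 were tested (Dlk1, Hes2, Hes3 and Hes7 did not pass the filter). With IFN-γ, 28 of the 50 differed from Ctr-OPCs, 4 higher and 24 lower, with a median log2 fold change of -0.19 (edgeR with the block; 30.8% of all tested genes differed). The count was 17 without Ctr replicate 2, and without the block it was 5 in edgeR and 9 in DESeq2. Among 6 further receptors and ligands tested, 5 were lower and none higher. Dll4, a ligand best known from vessel sprouting, fell from 3.59, 1.37, 1.39 and 1.90 to 1.11, 0.447, 0.209 and 0.153 normalized CPM, or 4 to 37 reads. Its log2 fold change was -2.14 (SE 0.29, adjusted p = 0.00013, edgeR). Of the 8 endothelial markers, Cldn5 and Tie1 had at most 3 reads in every library, while Flt1 (49 to 162 reads) and Kdr (29 to 134 reads) were detected. Of the 5 tested, Kdr fell with IFN-γ by 0.82 on the log2 scale (adjusted p = 0.0058, edgeR), and the other 4 did not pass the test. The part of endothelial RNA in the fall of Dll4 was not tested. Dlk2 fell by 0.97, and the noncanonical ligands Dner and Cntn1 fell by 0.44 and 0.41 on the log2 scale.

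Counts by role are small and are given beside 14.8% of all tested genes higher and 15.9% lower. Of 10 tested genes for cutting the receptor, 2 rose and 5 fell. Psen2, a catalytic subunit of γ-secretase, rose from 4.94, 8.55, 9.47 and 7.37 to 10.5, 21.5, 22.8 and 14.7 normalized CPM (log2 fold change 1.18, SE 0.088, adjusted p = 1.2e-06, edgeR). All 4 IFN-γ libraries lay above all Ctr libraries. Adam10, the protease that makes the first cut after ligand binding, rose by 0.22, and the related Adam17 fell by 0.19 on the log2 scale. The γ-secretase subunits Aph1b and Aph1c fell by 0.25 and 0.61. Among 5 genes for the sugars on the receptor, 3 fell. Mfng, a Fringe glycosyltransferase, fell from 6.32, 4.16, 4.49 and 4.23 to 2.93, 1.12, 1.70 and 0.649 normalized CPM (log2 fold change -1.65, SE 0.22, adjusted p = 0.00014, edgeR). Rfng fell by 0.25, and the third Fringe gene, Lfng, differed by 0.03 (log2, adjusted p = 0.90, edgeR).

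In the nucleus, most members of the complex moved little. Rbpj held 68.8, 74.4, 52.9 and 83.1 in Ctr-OPCs and 62.6, 67.6, 53.0 and 72.3 in IFN-γ-treated OPCs (log2 fold change -0.12, adjusted p = 0.11, edgeR). Of 10 such genes, the deacetylase Hdac1 rose by 0.27 and 2 fell, among them the corepressor Spen by 0.32 on the log2 scale. Of 4 Groucho corepressors, which Hes proteins recruit, 2 fell, among them Tle3 by 0.31. Of 12 genes for endocytosis or turnover of receptors and ligands, the ubiquitin ligase gene Dtx4 rose by 0.51, from 89.1 to 119 in Ctr-OPCs to 122 to 180 in IFN-γ-treated OPCs. In the same group 5 fell, among them Dtx1 by 0.49, Mib2 by 0.45, Numbl by 0.29 and Mib1 by 0.19. Of 3 further Hes and Hey genes tested, 2 fell, among them Hes6 by 0.38. Hes6 is a family member known for opposing Hes1, and it held 35.9 to 55.0 in Ctr-OPCs and 27.7 to 46.3 in IFN-γ-treated OPCs. All decreases and increases named in this list had an adjusted p of at most 0.016 (edgeR).

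**Figure D4:**
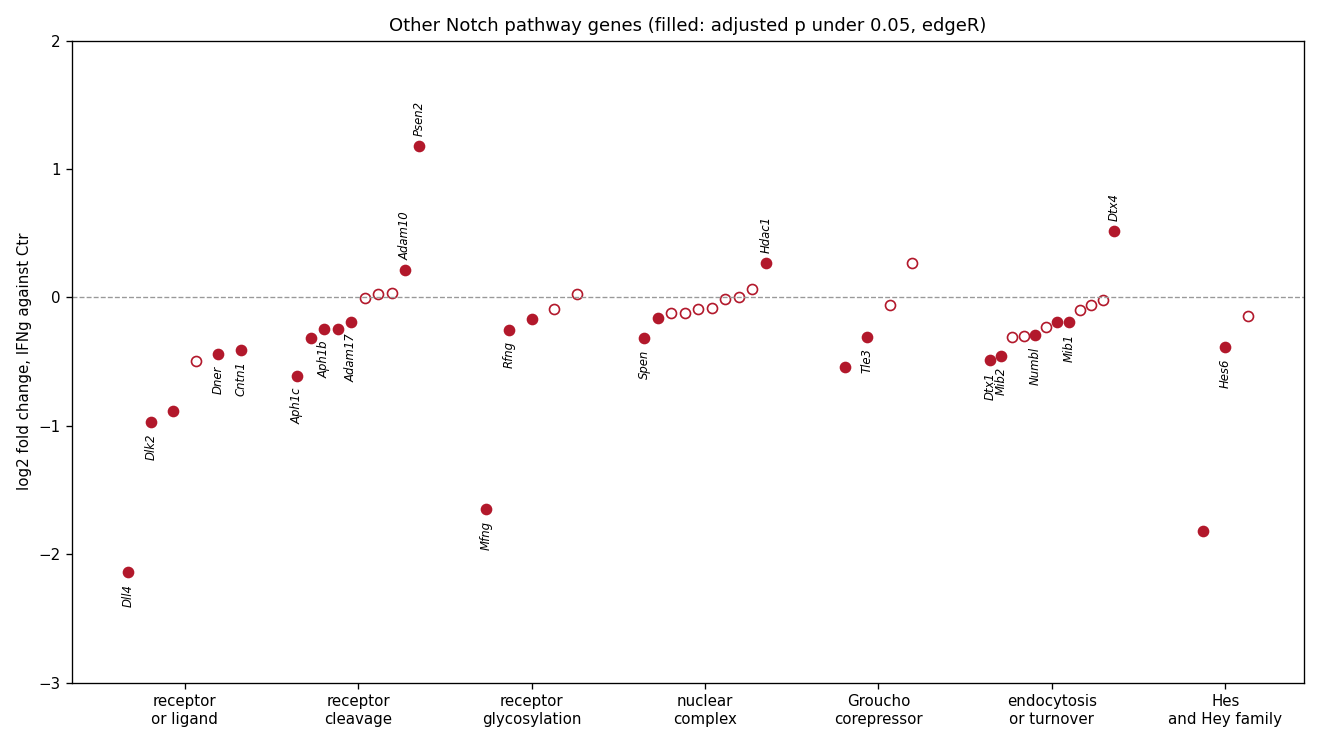
Log2 fold change of IFN-γ-treated OPCs against Ctr-OPCs for the 50 further pathway genes tested, grouped by role, with filled points for an adjusted p under 0.05 (edgeR with the block) and names for the 20 with the lowest p. Psen2 (1.18) and Dtx4 (0.51) lie highest, and 24 of the 28 filled points lie below 0.

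The list of other bHLH factors, which Hes repressors act on in neural precursors, and their Id partners included no gene called higher. Of 9 listed, 8 were tested (Neurog2 was not), and 3 fell with IFN-γ, where 15.9% of all tested genes were lower. Tcf12 fell by 0.26 (adjusted p = 0.0023) and Olig2 by 0.18 on the log2 scale (0.035, edgeR). Olig2, a factor of the oligodendrocyte lineage, held 363, 420.2, 484 and 476 in Ctr-OPCs and 296, 369, 481 and 409 in IFN-γ-treated OPCs, so the groups overlapped while every pair was lower.

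The comparison of Dexa-treated OPCs used the same Ctr libraries as that of IFN-γ-treated OPCs. Of the 10 members, 0 passed the test against Ctr-OPCs (edgeR), where 1.6% of all tested genes did. Jag1 and Hey1 had an unadjusted p under 0.05, and DESeq2 with the block called 1 of the 10, which was Jag1. The values of the 2 groups overlapped for each member, while 4.38% of all tested genes had groups that did not overlap. The 50 further pathway genes had 0 calls in edgeR and 6 with an unadjusted p under 0.05, and DESeq2 with the block called 1.

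Jag1 came nearest to a call. It held 31.8, 46.1 and 36.3 in Dexa replicates 1, 2 and 4, each below the Ctr library of the same number (37.2, 64.3 and 48.9). In the fit this gave -0.40 on the log2 scale (95% interval -0.59 to -0.20, adjusted p = 0.059, edgeR). The adjusted p was 0.012 in DESeq2 with the block, 0.047 with DESeq2 size factors, 0.00094 without the filter on low counts and 0.0011 in a fit of the 2 groups alone. It was 0.048, 0.033 and 0.031 without IFN-γ replicate 1, 2 or 4, and 1.0 without the block in edgeR. Hey1 held 27.0, 37.8 and 34.4 against 25.4, 32.6 and 31.8 in the paired Ctr libraries (log2 fold change 0.15, 95% interval 0.0062 to 0.30, adjusted p = 0.43, edgeR).

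The other members gave intervals around 0. Notch1 held 270.3, 236 and 184 in Dexa-treated OPCs (log2 fold change 0.11, 95% interval -0.06 to 0.28) and Notch2 held 63.1, 34.1 and 25.7 (0.10, -0.12 to 0.31). Dll1 held 100.5, 111 and 95.3 (-0.13, -0.32 to 0.07), and Dll3 held 80.6, 180.4 and 204 (0.06, -0.36 to 0.48). Hes1 held 17.0, 8.68 and 4.36 (-0.20, -0.48 to 0.08). In the incomplete Dexa replicate 3, Hes1 had 86 reads and 2.48 TPM, next to 2.35 TPM in Ctr replicate 3. Hes5 held 68.3, 67.9 and 45.4, Nrarp 37.8, 39.3 and 21.8, and Notch3 38.3, 18.1 and 12.7. These last 3 genes had the widest intervals, of which Nrarp ran from -0.51 to 0.50, Notch3 from -0.63 to 0.39 and Hes5 from -0.74 to 0.39 (log2), so changes of that size were not detectable with 3 Dexa libraries.

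Set against Dexa-treated OPCs, 5 of the 10 members differed in IFN-γ-treated OPCs (edgeR with the block; 33.1% of all tested genes differed). Notch1 was higher (16.3% of all genes were), with a log2 difference of 0.54 (adjusted p = 0.00029), and 4 were lower (16.8% were). The lower ones were Dll3 (-1.74, adjusted p = 0.00043), Notch2 (-0.90, 2.9e-05), Nrarp (-0.80, 0.030) and Dll1 (-0.45, 0.0025, edgeR). The groups did not overlap for Notch1, Dll1, Hes5 and Nrarp, against 19.6% of all tested genes. Jag1 differed by 0.04 between the treatments (95% interval -0.15 to 0.24, adjusted p = 0.75), and Hes1 by -0.31 (-0.59 to -0.02, 0.096, edgeR). Hes1 reached an adjusted p of 0.041 with the incomplete library added and 0.049 without IFN-γ replicate 4. Notch3 differed by -0.21 (adjusted p = 0.53), with 0.044 without Ctr replicate 3 and 0.049 without IFN-γ replicate 3. The call on Nrarp was lost without any 1 of 6 libraries (Ctr replicates 2 and 4, Dexa replicates 1 and 2, IFN-γ replicates 1 and 2), with adjusted p from 0.053 to 0.13. Without the block, edgeR called 0 members and DESeq2 called 3, with 4 and 5 members at an unadjusted p under 0.05. This comparison shares its IFN-γ libraries with the one against Ctr-OPCs. Of the 50 further pathway genes, 24 differed, 4 higher and 20 lower.

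The untreated libraries differed among themselves in the same genes. Of the 10 members, 7 were highest in Ctr replicate 1, where 33.0% of all tested genes were highest. The highest Ctr library was 6.69 times the lowest for Notch3, 4.31 times for Hes1, 2.76 times for Notch2 and 2.49 times for Dll3, but 1.23 times for Dll1 and 1.46 times for Hey1. Dll3 and Jag1 were lowest in replicate 1, as were 37.9% of all tested genes, and Hey1 was neither highest nor lowest there. Lfng, the Fringe gene with the most reads, held 140.3, 82.0, 18.5 and 43.7 in Ctr-OPCs, 161, 87.2 and 50.6 in Dexa-treated OPCs and 131, 65.7, 27.4 and 44.1 in IFN-γ-treated OPCs. Replicate 1 was thus the highest for Lfng whatever the treatment.

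Markers of astrocytes, a cell type in which Notch signalling and Lfng are active, moved with the replicate number as well. Of 9 astrocyte markers past the filter, 7 were highest in Ctr replicate 1, where 33.0% of all tested genes were highest. Gfap was highest in replicate 2, and S100b rose from replicate 1 to replicate 4 (9.19, 31.9, 60.1 and 87.8). Of 8 OPC markers, 7 were lowest in Ctr replicate 1, where 37.9% of all tested genes were lowest. Gja1, which codes for the gap junction protein connexin 43, held 65.0, 28.6, 12.03 and 20.8 in Ctr-OPCs, and Aqp4, the water channel of astrocytes, held 42.8, 23.0, 5.65 and 19.8. Gpr17, a receptor of committed oligodendrocyte precursors, ran the other way, with 445, 1802, 4178 and 4855, as did Sox10 with 176, 483, 600 and 645. The summed astrocyte markers ranged from 614 to 1575 in Ctr-OPCs, from 1206 to 1998 in Dexa-treated OPCs and from 1129 to 1632 in IFN-γ-treated OPCs. With IFN-γ, 4 of the 9 rose, Gfap by 3.98 (log2) among them, and 3 fell, among them Aqp4 by 0.85 and Gja1 by 0.37. Of the 8 OPC markers, 6 fell with IFN-γ and Ptprz1 and Olig1 did not pass the test, with a median log2 fold change of -0.59, beside -0.51 for the 10 members. Gpr17 fell by 2.10, Lhfpl3 by 0.75, Pdgfra by 0.62, Cspg4 by 0.61 and Sox10 by 0.57 on the log2 scale (adjusted p of at most 0.019, edgeR). The part of the astrocyte and OPC markers in the differences of the Notch genes was not tested.

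**Figure D5:**
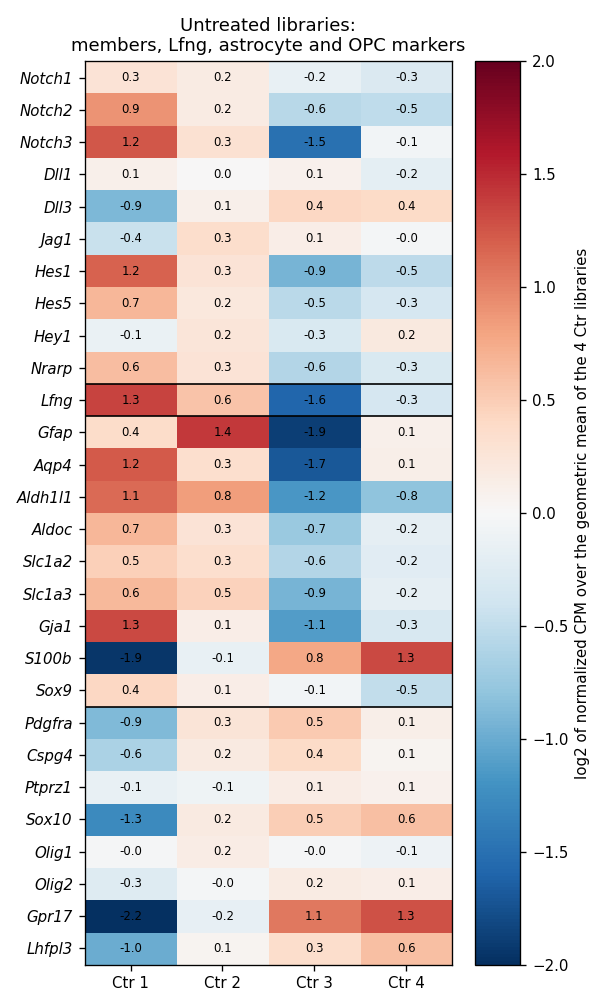
Log2 of normalized CPM over the geometric mean of the 4 Ctr libraries (red higher, blue lower, value in each cell) for the 10 members, Lfng, 9 astrocyte markers and 8 OPC markers, with black lines between these sets. In the column of replicate 1, Notch2, Notch3, Hes1, Hes5, Nrarp, Lfng and 7 of the astrocyte markers are at their highest, whereas Dll3, Jag1 and 7 of the OPC markers are at their lowest.

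Markers of endothelial cells, microglia and mural cells were low, and those of neurons were higher. The 8 endothelial markers summed to 4.67 to 6.36 normalized CPM in Ctr-OPCs and 3.58 to 4.73 in IFN-γ-treated OPCs. The 8 microglia markers summed to 0.432 to 1.21 and 1.02 to 1.64, with Aif1 and Cx3cr1 at 3 reads or fewer in every library. The 8 mural cell markers, of the cells in which Notch3 is best known, summed to 3.51 to 6.997 and 10.9 to 18.8. Kcnj8 was at 3 reads or fewer throughout, and Acta2, a smooth muscle actin gene, rose by 2.29 on the log2 scale (adjusted p = 0.00030, edgeR), while Vtn fell by 2.15 (adjusted p = 0.0020) and had at most 41 reads. The 8 neuron markers summed to 36.6 to 132 and 34.6 to 92.0, with Slc17a6 at 3 reads or fewer. Most of that sum was Dcx, which codes for doublecortin and held 21.9 to 115 normalized CPM in Ctr-OPCs. Of 5 neuron markers tested, Syt1 rose with IFN-γ (95% interval 0.74 to 1.45 on the log2 scale), and Dcx, Snap25 and Gad1 fell by 0.79, 0.48 and 1.31 on the log2 scale (adjusted p of at most 0.0053, edgeR). The part of these cell types in the differences of the Notch genes was not tested.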

How the data were processed

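Total RNA of cultured OPCs was made into strand-specific libraries (TruSeq Stranded Total RNA Gold) and read from both ends on a NovaSeq instrument. After trimming, the authors quantified transcripts with Salmon 0.8.2. The deposited tables give an estimated count and a TPM value per transcript. The deposited TPM values are scaled by the authors to transcript length and library total. The study's methods also name STAR 2.7, with Ensembl release 75. The authors' own 3 DESeq2 tables (mean normalized count, log2 fold change, its standard error, Wald statistic, p-value and adjusted p-value, 1 of them without a header line) were not used.

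Estimated counts were summed per gene with GENCODE M21 (Ensembl 96, GRCm38), which matched all 141862 transcripts by identifier, and rounded. TMM factors and the quasi-likelihood test of edgeR 4.0.16 (R 4.3.3, robust, 5 residual degrees of freedom) were applied to 18386 genes (minimum 10 counts, in 3 or more libraries), in 1 fit of the 11 complete libraries with the replicate number as a block. Dexa replicate 3, whose table stops after 47855 transcripts, stayed out. P-values were adjusted by Benjamini-Hochberg over all genes tested and called under 0.05. The study's methods name DESeq2 and give no design formula. The edgeR fit was chosen here, and DESeq2 1.42.0 was run as an alternative with and without the block. The standard error was taken from the fold change and its F statistic.

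Replicate numbers were taken to pair the libraries. Deviations from group means correlated at 0.47 to 0.83 within numbers, and every such pair was above 0.1, against -0.76 to 0.65 between different numbers. These ranges overlapped, since Ctr replicate 3 correlated with Dexa replicate 4 at 0.65. Per the study's methods the replicates came from different litters. The methods do not say that libraries with the same number share a litter. No 2 libraries of a group agreed within sampling noise (chi-square per degree of freedom 22.0 to 219). Reads per gene set the precision, and counting error does not tell PCR copies from molecules. The scripts were tested on simulated data, where the blocked edgeR fit recovered the fold changes put in, and a share of its calls above the threshold was false in the 1 draw made. The members and the gene lists were chosen with earlier results of these data known. Named were all members, the called genes of the further pathway list up to 20 by p-value, those under the filter, called bHLH genes, treatment checks and defining markers, and a few listed genes are not reported here. Alternatives were no block, DESeq2, its size factors, no filter, the compared groups alone, protein-coding transcripts, the incomplete library and leaving out each library. Leaving out all libraries of 1 replicate number was added after seeing the data.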

Additional observations from a re-analysis of the deposited data

How the results depend on the processing

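The replicate block decided most calls. Without it, edgeR called 1553 genes, 2 members and 5 further pathway genes in IFN-γ against Ctr, and 1584, 0 and 8 in IFN-γ against Dexa. DESeq2 without the block gave 2328, 4 and 9, and 2372, 3 and 12. Leaving out replicate 2 in all groups, an alternative chosen after seeing the data, gave 3452, 4 and 11, and 3327, 3 and 14, and leaving out replicate 4 in all groups gave 18 further pathway genes in IFN-γ against Ctr. Leaving out 1 library at a time gave 4129 to 6021 genes, 6 to 9 members and 17 (without Ctr replicate 2) to 27 further genes in IFN-γ against Ctr. It gave 4119 to 6212, 4 to 6 and 17 to 25 in IFN-γ against Dexa.

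In Dexa against Ctr, the main count of 294 genes became 25 without the block, 456 in DESeq2 with it and 100 without it, 466 without the filter, 1759 with the 2 groups alone, 164 without replicate 1 and 52 without replicate 2 in all groups, and 101 (without Dexa replicate 2) to 440 without 1 library. Called members were 1 in DESeq2 with the block, with its size factors, without the filter and with the 2 groups alone, and 0 to 1 without 1 library. Further pathway genes were 1 in DESeq2 with the block, 8 with the 2 groups alone and 0 to 2 without 1 library.

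Signs turned only for differences that passed no test. In Dexa against Ctr (log2) without the block in edgeR and DESeq2, Notch3 was 0.11 and 0.11, Dll3 -0.13 and -0.12, Hes1 0.040 and 0.041, and Nrarp 0.079 and 0.081. Notch3 was 0.0055 without Ctr replicate 2. Dll3 was -0.0055 with the 2 groups alone, -0.016 without Dexa replicate 2, -0.011 without Ctr replicate 3, -0.0064 without IFN-γ replicate 3 and -0.0064 without replicate 3 in all groups. Hes5 was 0.062 without Ctr replicate 1. Nrarp was 0.0036 with protein-coding transcripts, 0.18 and 0.0057 without Ctr replicates 1 and 2, 0.13 without Dexa replicate 4, 0.0091 without IFN-γ replicate 4, and 0.093 and 0.076 without replicates 1 and 4 in all groups. Jag1 in IFN-γ against Dexa was -0.0099 without Dexa replicate 4, -0.038 without IFN-γ replicate 4 and -0.052 without replicate 4 in all groups. Over the fits without 1 library, these differences ranged from -0.23 to 0.0055 (Notch3), -0.016 to 0.19 (Dll3), -0.28 to 0.062 (Hes5) and -0.16 to 0.18 (Nrarp) in Dexa against Ctr, and from -0.038 to 0.15 for Jag1 in IFN-γ against Dexa. The cause of these changes was not tested. In IFN-γ against Ctr, Notch1 and Dll1 were called under all 22 alternatives (log2 0.58 to 0.74 and -0.65 to -0.45). Hes1 was also lost without replicate 1 (adjusted p = 0.062) and 2 (0.096) in all groups, Jag1 without replicate 2 (0.081), and Nrarp without replicates 1 (0.057) and 2 (0.12, edgeR). Hes1, at 83 to 696 reads a library, had the fewest reads of the members.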
